A study of Homo sapiens with 9 samples.

Results

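The comparison described here set the array of U937 cells taken directly after 15 min at 42 °C against the array of unheated control cells. Its members were the arrays with these labels: the array labelled 42 °C with 0 h of recovery, and the control array, 2 of the 9 arrays of the series. Each array held total RNA of 1 sample, and no condition had a second array. The other 7 arrays came from cells heated for 15 min at 42 °C and returned to 37 °C for 1, 3 or 6 h, and from cells heated for 15 min at 44 °C and returned to 37 °C for 0, 1, 3 or 6 h. Control cells were cultured at 37 °C with no treatment, and the labels give them no time point. U937 is an established human line that grows in suspension. It was derived from a histiocytic lymphoma and has features of monocytes. Genes responsive to heat-induced apoptosis are the subject named in the series title. With 1 array on each side no test was run and no p-value is given. In all that follows a gene "rose" or "fell" when its scaled signal differed by 2-fold or more between the 2 arrays, which says only how large the difference between those arrays was.

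Heat unfolds proteins, and cells answer through heat shock factor 1 (HSF1), which leaves its chaperone partners, forms trimers and binds heat shock elements, inverted repeats of the letters GAA, in the promoters of chaperone genes. The products are machines of protein folding: HSP70 and its HSP40 and exchange partners, HSP90 and its cochaperones, the small heat shock proteins, and the chaperonins. Heat also slows transcription of many other genes. U937 cells are a common model of heat-induced apoptosis in leukocytes.

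Deposited signals of 54675 probe sets were brought to a trimmed mean of 100 per array. A floor was set at 12.5, their median over the 9 arrays, and lower signals took its value. The deposited trimmed means of the pair were close, at 165 for the control and 160.4 for 42 °C. After scaling, 49.1% and 49.4% of probe sets lay above the floor. The ratio of 3′ to 5′ signal, a sign of RNA integrity, was 1.30 and 1.19 for ACTB and 1.13 and 1.01 for GAPDH. A signal compares one gene between arrays and not one gene with another, since probe sets differ in binding. Of 19775 genes, 12395 were above the floor on 1 or both arrays. A fold that uses the floor on 1 side is given as "at least". Having 1 array per condition limits how precise any of these values can be.

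Over all genes 184 rose (0.93%) and 476 fell (2.41%), 3.34% in all. Among the 12395 genes above the floor on either array these were 1.48% and 3.84%. With quantile normalisation 236 rose and 372 fell, which moves the share of rises among changed genes from 27.9% to 38.8%. By 4-fold or more, 15 genes rose (0.0759%) and 19 fell (0.0961%). The counts sit in a dense stretch of values: 44 genes rose with a log2 fold under 1.1 and 59 lay between 0.9 and 1, while 120 fell just past -1 and 144 lay between -0.9 and -1. Rises were mostly dim. The brighter of both signals had a median of 43.7 among genes that rose and 106 among genes that fell, and it reached 100 in 55 of the 184 and 248 of the 476. In 57 of the rises the control was at the floor, and in 68 of the falls the 42 °C array was. Where a gene had further probe sets above the floor on either array, all of them had the same sign in 44 of 61 genes that rose and in 181 of 247 that fell. An opposite log2 fold of 0.5 or more was found in 5 and 19 of them. Probe sets share the RNA of the 2 arrays and are not replicates.

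**Figure D1:**
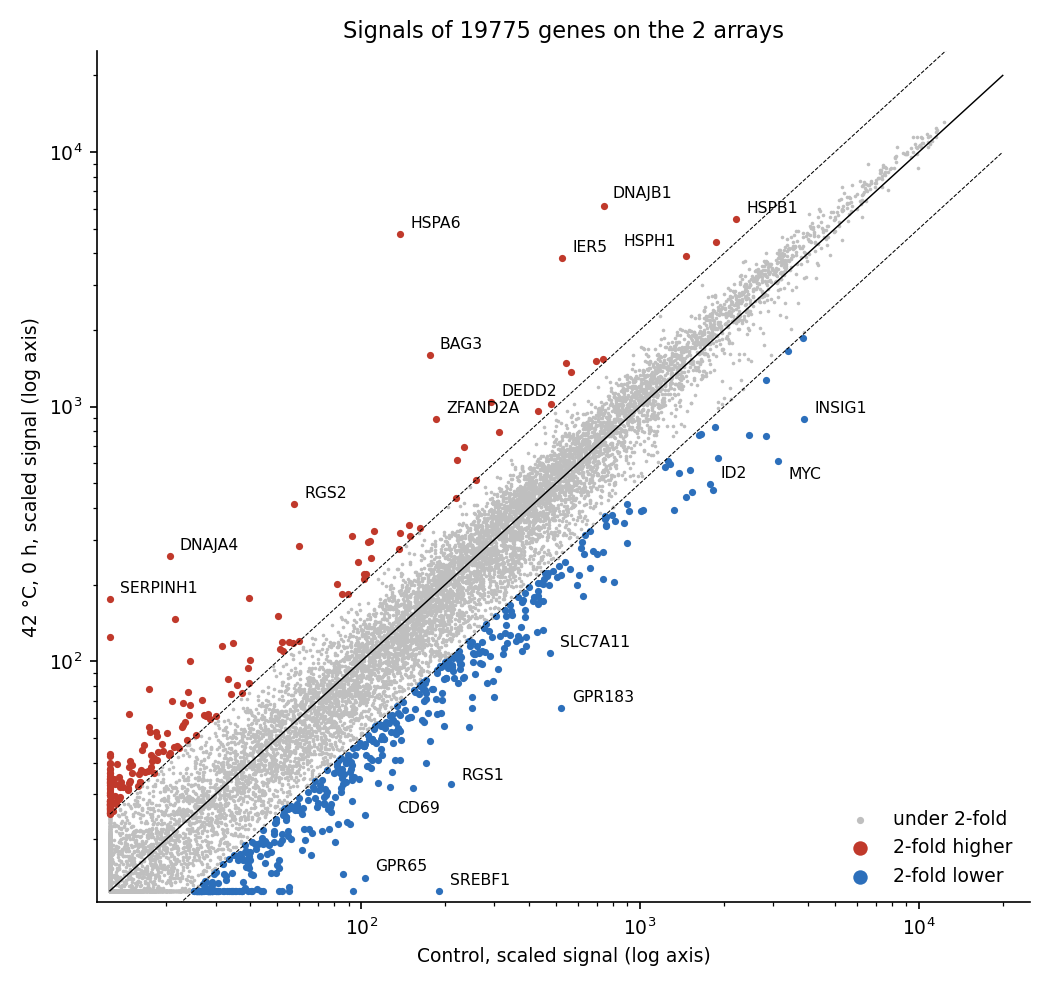
Scaled signal of each of 19775 genes on the control array (x axis, log) and on the array of cells heated for 15 min at 42 °C and sampled at 0 h (y axis, log), with values under the floor of 12.5 set to it. Dashed lines mark 2-fold differences; 184 genes lie above them (red) and 476 below (blue), with HSPA6 at 138 and 4751 and GPR183 at 522 and 65.5.

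The differences also moved with brightness. When genes above the floor were put in 10 bins by mean signal, the median log2 fold was -0.16 in the fourth bin (median signal 58.9) and 0.16 in the brightest (median signal 1877). The share of genes with a fold above 0 went from 34.9% in the fifth bin to 75.7% in the brightest. Its share over all genes above the floor was 49.4%. On the 44 °C array at 0 h the brightest bin had a median of 0.051. These medians are the background for small shifts of gene lists below, and the part of brightness in those shifts was not tested.

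The chaperone system held the largest rise of all genes. Among 100 genes of 6 chaperone families 11 rose and 0 fell, where 0.93% and 2.41% of all genes did. Of the 100, 92 were above the floor, with a median log2 fold of 0.26 against -0.0059 for all genes above it. The rises were concentrated in a few inducible members. HSPA6, a strictly stress-induced HSP70, went from 138 to 4751, or 34.4-fold. Its second probe set went from 82.6 to 2983, a log2 fold of 5.18 beside 5.10. Such probes may also bind transcripts of the near-identical HSPA7. Of the other HSP70 genes, HSPA1L rose from 31.7 to 115, with a log2 fold of 0.32 by another probe set. HSPA4L, an HSP110-type exchange factor, stood at the edge of the size rule with 137 and 275 (2.01-fold). HSPH1, the main HSP110, rose from 1464 to 3904 (2.67-fold).

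HSP70 proteins of other compartments stayed under 2-fold. The log2 fold was 0.18 for HSPA5 (BiP) of the endoplasmic reticulum, 0.083 for HSPA9 (mortalin) of mitochondria and -0.79 for HSPA13. HSPA1A, HSPA1B and HSPA8 share probe sets with other genes in the annotation and were given no level.

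HSP40 proteins hand clients to HSP70 and start its cycle. Of 38 on the array 3 rose and 0 fell, where 0.93% and 2.41% of all genes did. The 35 others kept within 2-fold (list median above the floor 0.059). DNAJB1 rose from 742 to 6140 (8.28-fold), and its other probe set had a log2 fold of 3.48. DNAJA4 went from 20.5 to 259 (12.6-fold), while its other probe sets had log2 folds of 0.90 to 2.65. DNAJA1 rose from 1873 to 4437 (2.37-fold), with 1.16 in log2 by its other probe set. DNAJB2 had 0.97 in log2 with the control at the floor. DNAJC3, which inhibits the kinase PERK, had -0.62.

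The exchange factor BAG3, which couples HSP70 to small heat shock proteins and to autophagy, rose from 176 to 1591 (9.05-fold). It was the 1 of 10 members of its list to rise, where 0.93% of all genes rose. BAG2 and HSPBP1 had log2 folds of 0.79 and 0.49, and BAG1 had -0.51. HSPB1, a small heat shock protein that holds unfolded proteins, rose from 2215 to 5444 (2.46-fold). CRYAB was dim, with 3.58 on the control and 22.5 at 42 °C, a log2 fold of at least 0.84.

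Cochaperones of HSP90 moved by less. CHORDC1 rose from 429.8 to 965 (2.25-fold; log2 fold 0.20 by another probe set). FKBP4, a peptidyl-prolyl isomerase of steroid receptor complexes, rose from 735 to 1533 (2.09-fold), a call lost with quantile normalisation (0.97 in log2). STIP1, which bridges HSP70 and HSP90, had 0.75 and CACYBP 0.67. HSP90AA1, the inducible cytosolic HSP90, had 0.45 from a control signal of 6588, and its constitutive relative HSP90AB1 had 0.23. In all 15 of 16 members above the floor had a fold above 0 (median 0.36, or 0.25 with quantile normalisation).

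**Figure D2:**
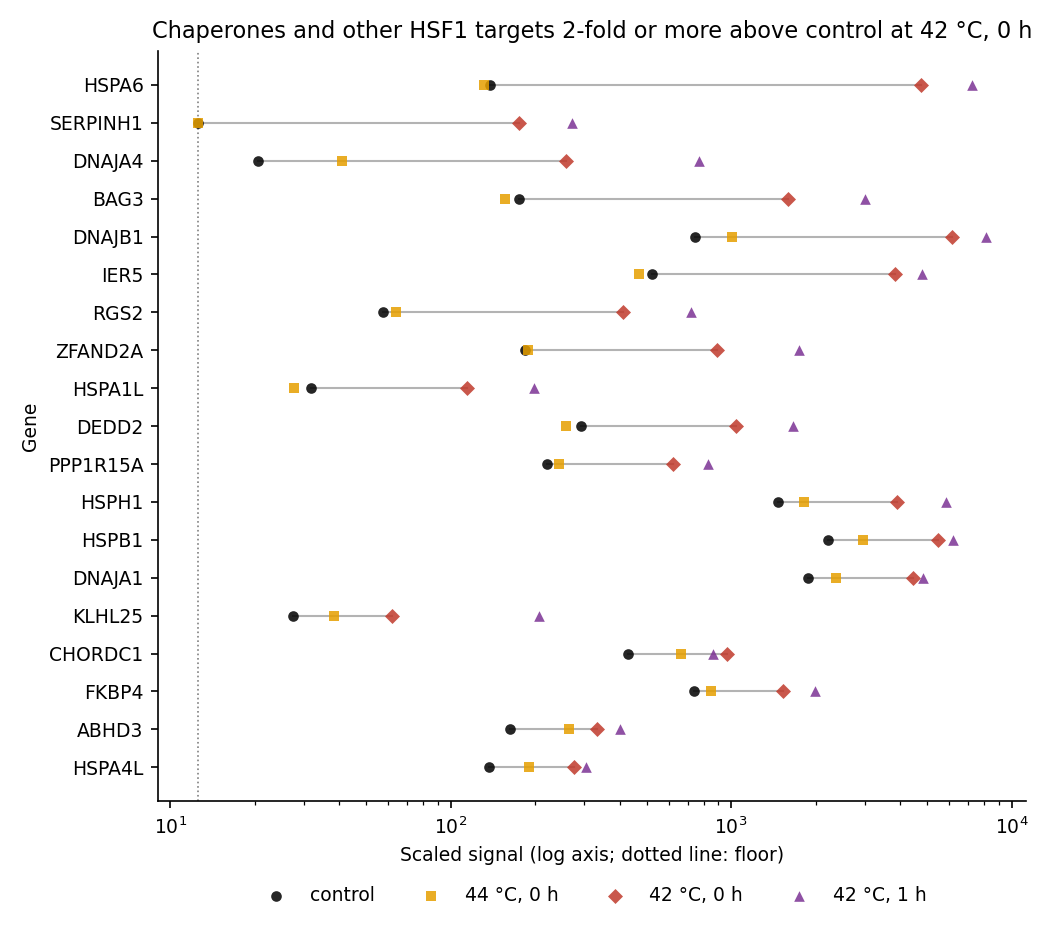
Scaled signal (x axis, log) of the 19 genes of the chaperone lists and the list of other HSF1 targets that rose at 42 °C and 0 h, on 4 arrays with 1 point each: control, 44 °C at 0 h, 42 °C at 0 h and 42 °C at 1 h. HSPA6 and BAG3 stand near the control at 44 °C and 0 h (131 and 156) and far above it at 42 °C and 0 h (4751 and 1591).

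Of 21 measured genes of a list of other known HSF1 targets, 9 rose and 0 fell (median 0.57), where 0.93% and 2.41% of all genes did. Like the chaperone lists, it was written with earlier results of these data known, so these counts are a description only. HSPA4L is on this list as well. SERPINH1, the collagen chaperone HSP47, was far below the floor on the control array (0.576) and had 176 at 42 °C, a log2 fold of at least 3.81. IER5, a partner of HSF1 and of the phosphatase PP2A, rose from 524 to 3830 (7.31-fold). RGS2, which shortens G protein signals, rose from 57.3 to 413 (7.21-fold). ZFAND2A (AIRAP), a proteasome-associated zinc finger protein, went from 185 to 891 (4.82-fold). DEDD2, a death effector domain protein, rose from 293 to 1041 (3.56-fold). PPP1R15A (GADD34), which restores translation by dephosphorylating eIF2alpha, rose from 221 to 618 (2.80-fold), and its other probe set had 2.33 in log2. KLHL25 (2.26-fold) and ABHD3 (2.04-fold) also passed. MRPL18, a mitochondrial ribosomal protein with a stress-induced cytosolic form, had 0.86 in log2 (1661 and 3011). Polyubiquitin UBB had 0.26 and the autophagy receptor SQSTM1 -0.25. HSF1 itself stood at 176 and 184 (log2 fold 0.065).

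The promoters of genes that rose were searched for the letters that HSF1 is known to bind. Promoter windows of RefSeq (GRCh38.p14, 250 bases before to 50 after a gene's start) were searched on both strands for heat shock elements. A pair of units is GAANNTTC or TTCNNGAA, and the element of 3 units adds 1 more inverted unit after another 2 free bases. A window held the 3-unit element in 0.608% of 27305 genes of the table, in 7 of the 131 genes that rose and have a window (5.34%) and in 1 of 373 that fell (0.268%). The 7 were HSPA6, SERPINH1, TMEM95, MS4A6A, DNAJA1, CHORDC1 and ABHD3, and the 1 was GAS5. The element of 2 units, which every 3-unit match contains, was in 16.2% of all genes with a window, in 29 of 131 that rose (22.1%), in 6 of the 11 that rose 4-fold or more, and in 44 of 373 that fell (11.8%). Below, 5 stretches with 3 units and a pair with 2 units are shown with the matched letters in capitals, since they belong to genes of the chaperone lists or of the list of other HSF1 targets. The 3-unit stretches of TMEM95 and MS4A6A, which are on neither, are not shown. A match is a run of letters and no measure of binding.

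HSPA6 (chr1:161524446-161524498, plus strand, match 74 bases before the start): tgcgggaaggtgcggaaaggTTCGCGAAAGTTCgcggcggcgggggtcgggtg
SERPINH1 (chr11:75562157-75562209, plus strand, match 76 bases before the start): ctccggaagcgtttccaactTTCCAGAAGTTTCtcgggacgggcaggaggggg
CHORDC1 (chr11:90223067-90223129, minus strand, first match 60 bases before the start): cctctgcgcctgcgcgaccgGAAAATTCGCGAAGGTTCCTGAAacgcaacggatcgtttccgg
DNAJA1 (chr9:33025256-33025308, plus strand, match 3 bases after the start): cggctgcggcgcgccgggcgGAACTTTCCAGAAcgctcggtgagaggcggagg
ABHD3 (chr18:21704887-21704939, minus strand, match 145 bases before the start): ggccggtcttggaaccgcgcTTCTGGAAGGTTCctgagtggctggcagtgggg
DNAJB1 (chr19:14518417-14518494, minus strand, 2 units, first match 77 bases before the start): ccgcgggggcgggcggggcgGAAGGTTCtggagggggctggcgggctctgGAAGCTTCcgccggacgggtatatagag
DNAJA4 (chr15:78264451-78264537, plus strand, 2 units, first match 91 bases before the start): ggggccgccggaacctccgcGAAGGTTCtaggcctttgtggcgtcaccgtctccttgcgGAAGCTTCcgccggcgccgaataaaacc

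CHORDC1 has 3 overlapping matches in this stretch, and DNAJB1 and DNAJA4 have 2 separate ones each. The windows of IER5 and ZFAND2A, of the list of other HSF1 targets, hold 1 match of 2 units each. These lie 226 and 171 bases before the start and are not shown. The windows of BAG3 and RGS2 hold neither form.

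Constitutive folding and degradation machines had small differences of 1 sign by the probe sets used. All 14 measured subunits of the chaperonins and prefoldin had folds above 0, from 0.20 for PFDN1 to 0.44 for PFDN2 (median 0.35), and 0 rose. Other probe sets did not all follow: 3 of HSPD1 ran from 0.40 to 2.89, and 1 of CCT4 had -0.23. All 29 proteasome genes likewise lay above 0, from 0.056 for PSMD12 to 0.61 for PSMD4 (median 0.30), and 0 rose. Folds above 0 were also found in 24 of 24 genes of oxidative phosphorylation (median 0.19) and 23 of 26 ribosomal proteins (median 0.13). These genes are bright, and 75.7% of all genes in the brightest bin lay above 0. Quantile normalisation brought the medians to 0.20 for chaperonins, 0.17 for the proteasome, 0.081 for oxidative phosphorylation and 0.0098 for ribosomal proteins. In the endoplasmic reticulum list 0 of 22 rose and 0 fell (median 0.20, 0.072 with quantile normalisation), with HSP90B1 at 0.76 and XBP1, a transcription factor of the same response, at -0.54.

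**Figure D3:**
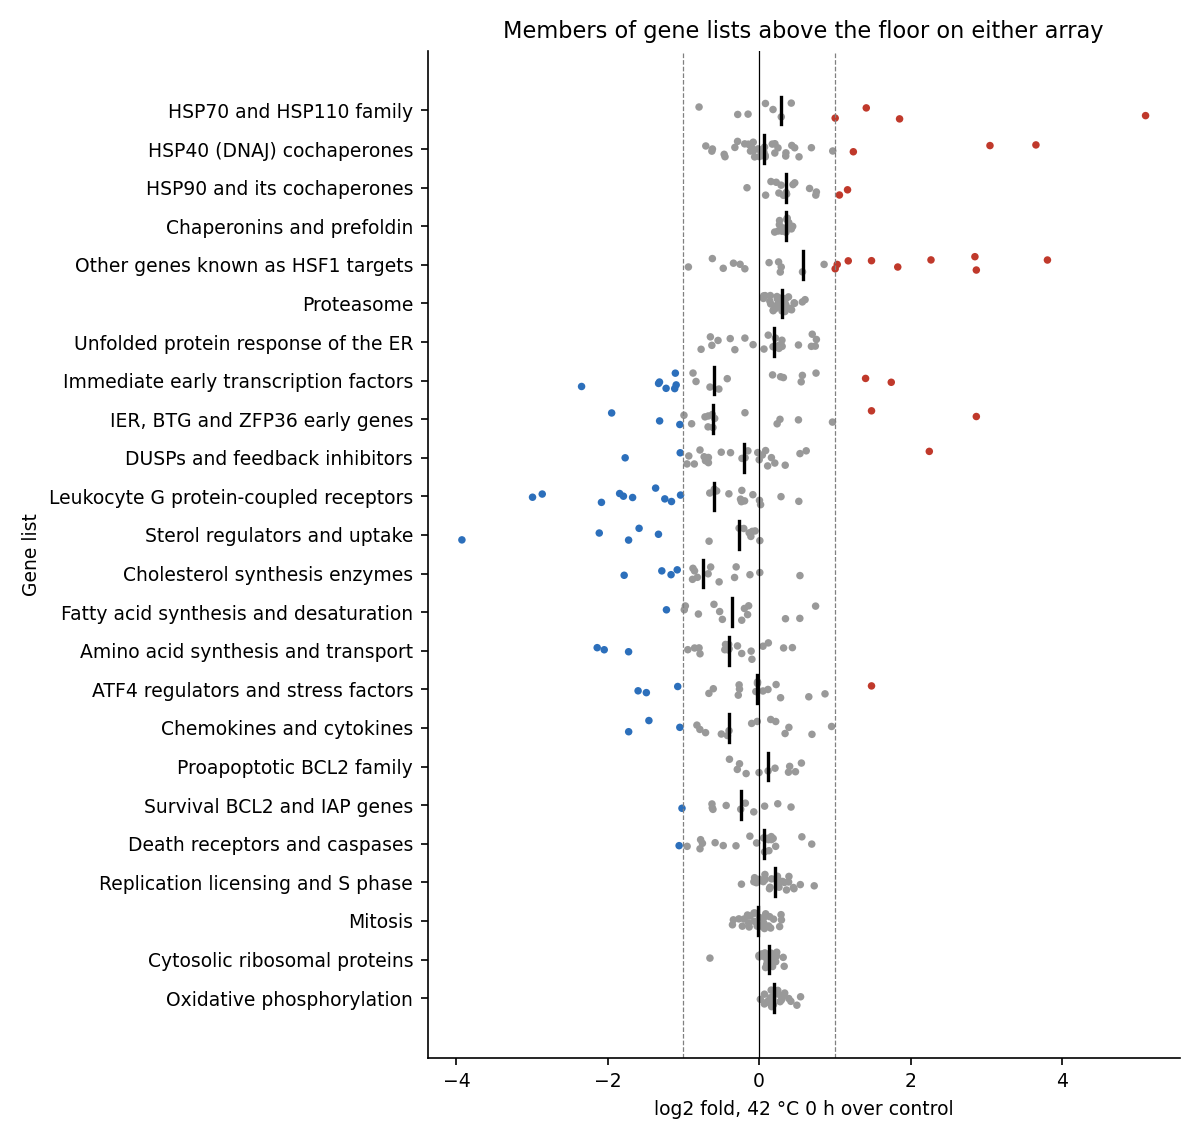
log2 fold of 42 °C at 0 h over control (x axis) for the members of 24 gene lists that were above the floor on either array, 1 point per gene, with a black bar at each list's median and dashed lines at 2-fold. Chaperone and HSF1 target lists reach to the right with 5.10 for HSPA6, and receptor, sterol and early gene lists reach to the left with -3.93 for SREBF1 as a bound.

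Genes of sterol and fatty acid synthesis fell or lay within 2-fold, and none rose. Cells make cholesterol from acetyl-CoA through the mevalonate pathway, and the factors SREBF2 and SREBF1 switch on its enzymes when INSIG1 no longer holds them in the endoplasmic reticulum. Over 46 genes of the 3 lists 10 fell and 0 rose, where 2.41% and 0.93% of all genes did. Of the regulators, INSIG1 went from 3868 to 895 (4.32-fold lower), and its other probe sets had log2 folds of -1.94 and -1.92. SREBF1 went from 191 to 4.68, below the floor and at least 15.2-fold lower by its 1 probe set above the floor. SREBF2 went from 215 to 85.5 (2.51-fold lower), and its other probe sets had -0.39 and -0.27. The cholesterol carriers NPC1, of late endosomes, and STARD4, of the cytosol, fell 3.31-fold (1532 to 464) and 3.00-fold (322 to 107). SCAP, which escorts both factors, stood at 412 and 414.

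Among 16 enzymes of cholesterol synthesis 4 fell and 14 had folds below 0 (median -0.74). HMGCS1, at the start of the pathway, went from 378 to 109.9 (3.44-fold lower). LSS, which closes the sterol rings, fell 2.12-fold, MVD 2.44-fold and HSD17B7 at least 2.24-fold. IDI1, MSMO1, SQLE and SC5D lay just inside 2-fold with log2 folds of -0.88, -0.87, -0.85 and -0.82. PMVK, a kinase of the same pathway, had 0.54. With quantile normalisation 6 of the 16 fell. In fatty acid synthesis FASN fell 2.34-fold (417 to 178), while the desaturase SCD had -0.99, FADS2 -0.80 and the acetyl-CoA synthetase ACSS2 -0.97. The 44 °C array at 0 h had values of the same order for most of these genes, among them -1.66 for INSIG1, -1.75 for NPC1 and -1.60 for MSMO1, but -0.15 for FASN. Both comparisons share the control array.

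Several genes of amino acid supply, known targets of the stress factor ATF4, fell. Of 41 genes in the ATF4 and amino acid lists 6 fell and 1 rose (2.41% and 0.93% of all genes did), the latter PPP1R15A, and CEBPB among the falls is described with the myeloid factors. SLC7A11, the cystine importer, went from 474 to 108 (4.41-fold lower), with -2.13 and -0.62 in log2 by other probe sets. CTH, which makes cysteine from cystathionine, went from 300.1 to 72.6 (4.13-fold lower). ASNS, asparagine synthetase, went from 309 to 93.6 (3.31-fold lower). PSAT1 of serine synthesis had -0.94 and CBS -0.85, and the glutamine transporters SLC38A2 and SLC38A1 had -0.79 and -0.78. TRIB3, a pseudokinase that dampens ATF4, fell 2.11-fold (1624 to 770.4), and VLDLR 2.81-fold. ATF4 itself stood at 1970 and 1941 (log2 fold -0.021), DDIT3 (CHOP) at 66.8 and 105 (0.66), and 0 of 15 tRNA synthetases rose or fell.

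Motifs of both programmes were searched in the same windows. The sterol regulatory element TCACNCCAC was in 1.39% of all genes with a window and in 1 of 9 that fell on the sterol regulator and enzyme lists, SREBF2. Over the whole lists it was in 1 of 13 sterol regulator genes and 0 of 14 cholesterol enzymes with a window. The amino acid list held it in 2 of 17. The ATF4 type element TGATGNAA was in 4.46% of all genes with a window and in 10 of 373 that fell (2.68%). Of the 6 genes that fell on the ATF4 and amino acid lists, 5 have a window, and 1 of these holds it, ASNS. In the whole amino acid list it was in 7 of 17 genes with a window (41.2%). The stretches of SREBF2 and ASNS are shown because both genes fell and their values are given above.

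SREBF2 (chr22:41832952-41833000, plus strand): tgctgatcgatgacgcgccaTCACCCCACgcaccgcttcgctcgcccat
ASNS (chr7:97872449-97872496, minus strand, match 68 bases before the start): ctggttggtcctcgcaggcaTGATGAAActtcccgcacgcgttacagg

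Immediate early genes, which growth factors and stress switch on without new protein, split in both directions. Over 71 genes of 3 lists 12 fell and 5 rose, where 2.41% and 0.93% of all genes did. Beside IER5 and PPP1R15A the rises were KLF2, a factor of quiescent leukocytes (20.9 to 70.0, 3.35-fold), DUSP1, which inactivates MAP kinases (59.7 to 283, 4.75-fold, and 0.80 and 1.14 in log2 by other probe sets), and NR4A1, dim at 33.2 and at least 2.65-fold higher. AP-1 subunits differed among themselves. JUN went from 503 to 214 (2.34-fold lower), and its other 3 probe sets gave -1.07 to -1.91. JUND went from 1379 to 549 (2.51-fold lower) and JUNB from 167 to 77.5 (2.15-fold lower). FOS and FOSB had log2 folds of 0.56 and 0.75 from dim control signals of 35.5 and 38.8. SRF, the factor that drives many early genes, fell 2.14-fold (452 to 211), and EGR1 had -0.53.

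Other early regulators fell. IER2 went from 1822 to 472 (3.86-fold lower) and ZFP36L2, which speeds decay of AU-rich transcripts, from 3835 to 1855 (2.07-fold lower). DUSP6, a phosphatase of ERK and a readout of its activity, went from 391 to 115 (3.41-fold lower), with -1.81 and -2.23 by other probe sets. SPRED1 fell 2.06-fold, a call lost with quantile normalisation and with the median over probe sets, and the ERK feedback inhibitors SPRY2, SPRY4 and SPRED2 had -0.86, -0.95 and -0.78. KLF6, KLF9 and MAFF fell 2.17-fold, 2.36-fold and 2.49-fold, although another probe set of KLF6 had 0.46 and 1 of KLF9 had 0.38. The other probe set of MAFF had -0.21.

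MYC, a driver of growth and ribosome production, went from 3123 to 614 (5.08-fold lower). In its network MNT, a repressor that competes for the partner MAX, fell 3.09-fold (193 to 62.5) and MXD3 2.97-fold, whereas MAX stood at 1227 and 1241. Among 28 genes of ribosome biogenesis, many of them MYC targets, 0 rose and 0 fell (median 0.084), from -0.82 for RRS1 to 0.49 for RRP9.

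Receptors of the leukocyte surface formed the list with the highest number of falls of the 48 examined. The lists differ in size and were chosen with earlier results of these data known, so this rank is a description only. Of 31 G protein-coupled receptors of leukocytes on the array, 23 were above the floor, 10 fell and 0 rose, where 2.41% of all genes fell. The median of those above the floor was -0.59 (-0.45 with quantile normalisation, with 9 that fell). With the floor at 79.0, the third quartile of all values, 6 fell. GPR183, which guides cells by oxysterols, went from 522 to 65.5 (7.97-fold lower). GPR65, a sensor of acid, went from 103 to 14.1 (7.29-fold lower), and its relative GPR132 from 82.3 to 22.9 (3.59-fold lower). The chemokine receptors CXCR4 and CCR1 fell 3.19-fold (2468 to 775) and 3.47-fold (115 to 33.2), with all other probe sets of both between -1.40 and -1.87. C5AR1, the complement C5a receptor, went from 54.8 to 12.9 (4.24-fold lower). The prostaglandin receptor PTGER4 fell 2.58-fold, GPR84 2.37-fold, P2RY8 2.23-fold and GPR18 2.05-fold. Others held their level, such as the formyl peptide receptor FPR2 (88.4 and 89.6) and S1PR4 (154 and 145).

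Of 19 RGS genes, which code for brakes on G protein signals, 1 rose (RGS2) and 1 fell, where 0.93% and 2.41% of all genes did. RGS1 went from 209.9 to 32.9 (6.37-fold lower; -0.50 by another probe set). Among the 25 largest falls were also CD69 and TNFRSF12A. CD69, an activation marker that holds cells in tissue, went from 154 to 31.7 (4.86-fold lower). TNFRSF12A, the receptor of TWEAK, went from 171 to 40.0 (4.28-fold lower).

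Cytokine genes were lower where they changed. Of 28 chemokines and cytokines 3 fell and 0 rose, where 2.41% and 0.93% of all genes did. The 3 were CCL2 (1464 to 443), CXCL8 (375 to 136) and TNF (52.7 to 25.5). The fall of TNF was lost with quantile normalisation and that of CXCL8 was -0.64 by another probe set. Of 16 genes of NF-kB signalling 2 feedback inhibitors rose and 0 fell, where 0.93% and 2.41% of all genes did. TNFAIP3 (A20) went from 97.6 to 246 (2.52-fold, 0.99 in log2 by another probe set) and NFKBIZ from 51.9 to 119 (2.30-fold, and 1.95 by another). NFKBIA, the classic inhibitor, had -0.13, and the subunits NFKB1 and RELA had 0.36 and -0.025. Of 22 interferon response genes 3 fell, where 2.41% of all genes did. They were IRF1 (2.70-fold), IFIT3 (2.53-fold) and USP18 (2.14-fold), each with a control signal of 105 or less. The call of USP18 was lost with quantile normalisation.

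Apoptosis is the theme of the series title. Of 46 genes in 3 apoptosis lists 2 fell and 0 rose, where 2.41% of all genes fell and 0.93% rose, so the count is near that of all genes. Among the BH3-only genes PMAIP1 (NOXA) stood at 496 and 731 (log2 fold 0.56), BCL2L11 (BIM) had -0.17 and BID 0.21. BAX and BAK1, which open the mitochondrial membrane, had 0.12 and -0.0018. The survival genes MCL1, BCL2L1, BCL2A1 and BCL2 had -0.61, -0.62, -0.62 and -0.44, with probe sets of MCL1 spread from -1.18 to 0.37. XIAP (398 to 196) fell by its brightest probe set while others ran from -1.35 to 0.83. TNFRSF10B, a TRAIL receptor, fell (385 to 185) while its other probe sets had -0.36 and -0.012. Both falls were lost with quantile normalisation. The receptor adaptor FADD had -0.95, TNFRSF1A -0.75 and CASP8 -0.58.

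Cell cycle genes lay within 2-fold apart from a few regulators. Of 26 genes of DNA replication and 28 of mitosis 0 rose and 0 fell (medians 0.20 and -0.010). CDKN1B (p27), an inhibitor of G1 kinases, went from 898 to 292 (3.07-fold lower), whereas CDKN1A (p21) stood at 105 and 79.5. GADD45B, a stress activator of p38 and JNK, rose from 234 to 692 (2.96-fold), with 0.48 to 1.77 by other probe sets. TXNIP, which inhibits thioredoxin and glucose uptake, rose from 312 to 797 (2.56-fold), with 1.18 and 1.79 by others. HMOX1, a target of NRF2 and of heat, had 0.88 (114 and 210.0), and SRXN1, an NRF2 target, fell 2.20-fold.

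Transcription factors of myeloid cells were lower where they changed, with 1 dim exception. CEBPB, a factor of monocyte differentiation, went from 1896 to 626 (3.03-fold lower) and ID2, which blocks helix-loop-helix factors, from 1782 to 495 (3.60-fold lower). BCL6 fell 2.49-fold by its brightest probe set but had 0.88 by another. CEBPA and HHEX stopped just short, with -0.98 and -0.97. SPI1 (PU.1) stood at 77.5 and 76.2, IRF8 at 404 and 402 and MYB at 3919 and 4008. The exception, ID3, had 3.14 on the control and 34.6 at 42 °C.

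Among genes of RNA processing and transcription, the kinase CLK1, which phosphorylates splicing factors, rose from 138 to 320.0 (2.32-fold). CLK4 rose 2.05-fold, but its other probe sets had -0.68 and 0.64. None of the measured SR proteins passed 2-fold, with 0.59 for SRSF11 and -0.60 for SRSF6. The nuclear RNA MALAT1 fell 2.62-fold from 1028, and its other 11 probe sets above the floor ran from -2.19 to 0.02. BRD2, a reader of acetylated histones, fell 2.30-fold (812 to 354). In glucose metabolism the regulators PFKFB4, PFKFB3 and the kinase HK2 fell 2.42-fold, 2.02-fold and 2.01-fold, while the enzymes of the core pathway lay between -0.15 (PFKP) and 0.46 (LDHA) apart from the dim ALDOC (23.3 to 58.0). The other probe sets of HK2 had -0.11 and -0.0025, and the calls of HK2 and PFKFB3 were lost with quantile normalisation.

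The remaining large falls were in genes of varied roles. TUBA1A, an alpha tubulin, went from 2833 to 768 (3.69-fold lower). CITED2, a coregulator that limits HIF1 activity, went from 806 to 205 (3.94-fold lower), with -2.18 by its other probe set. DDX28, a mitochondrial RNA helicase, went from 250.2 to 65.2 (3.84-fold lower), with -1.39 and -1.92 by others. MAP1S, NRROS and KDM7A fell 3.55-fold, 3.97-fold and 3.63-fold. PMS2P5, a pseudogene of a family of near-identical copies, fell 4.39-fold, and its probes may also bind transcripts of its relatives. MAML2, a coactivator of Notch, fell at least 4.39-fold, and IBA57, NEGR1 and TBC1D2 fell 4.15-fold, 3.82-fold and 3.96-fold from control signals of 103 or less. In log2, other probe sets of IBA57 above the floor ran from -1.75 to 0.13, and those of NEGR1 had -0.74 and -0.58.

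**Figure D4:**
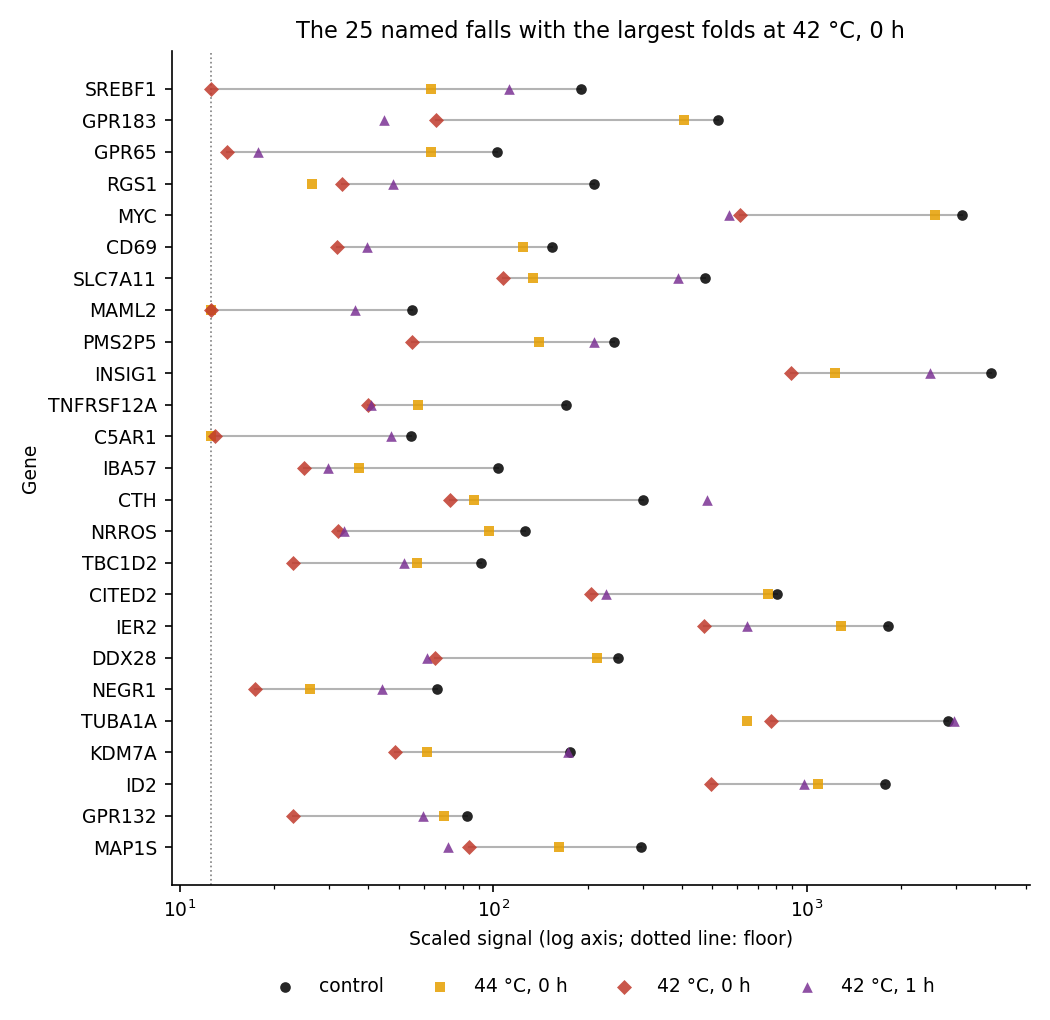
Scaled signal (x axis, log) of the 25 genes with the largest falls at 42 °C and 0 h that passed a check of other probe sets. Genes with another probe set opposing the fall by 0.5 or more in log2 were left out, while smaller disagreements remain. The control, 44 °C at 0 h, 42 °C at 0 h and 42 °C at 1 h are shown as 1 point each. MYC at 44 °C and 0 h (2567) lies near the control (3123), while INSIG1 there (1228) lies near its 42 °C value (895).

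Large rises outside the lists were dim. COL2A1, a cartilage collagen, went from 11.3 to 124, at least 9.90-fold, and its second probe set went from 1.29 to 35.5. ACTRT3 went from 21.4 to 146 (6.81-fold), GPR89B from 17.3 to 77.8 (4.50-fold), SLC34A3 from 24.2 to 100.2 (4.14-fold) and RFPL2 from 24.0 to 75.9 (3.17-fold). CGAS, the sensor of cytosolic DNA, went from 22.9 to 68.7 (2.99-fold), with 1.30 by its other probe set. HP, ZNF586, KMT5C, PNLDC1, MICOS10P1 and TMEM95 rose to signals between 37.8 (MICOS10P1) and 55.1 (KMT5C). With the floor at 79.0, the third quartile of all values, none of these 6 genes had a difference left.

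The array of cells sampled directly after 44 °C shares the control and the recovery time with this one. Against the same control 169 genes rose (0.855%) and 204 fell (1.03%) there, and 0 of the 100 chaperone family genes rose and 1 fell. HSPA6 stood at 131, BAG3 at 156, DNAJB1 at 1008 and IER5 at 471, with log2 folds among these from -0.17 for BAG3 to 0.44 for DNAJB1. DNAJA4 stopped just short of 2-fold there (20.5 and 40.8, log2 fold 0.99), CHORDC1 had 0.63 and HSPA1L -0.20. Some falls of 42 °C were small at 44 °C: the log2 fold at 42 °C and at 44 °C was -2.35 and -0.28 for MYC, -2.99 and -0.37 for GPR183, -2.28 and -0.31 for CD69, -1.98 and -0.10 for CITED2, -1.62 and -0.11 for CDKN1B, and -1.67 and -0.31 for CXCR4. Others had like values on both arrays, such as -2.67 and -2.99 for RGS1, -1.88 and -2.13 for TUBA1A, -2.14 and -1.82 for SLC7A11, and -2.05 and -1.79 for CTH. C5AR1 was at 12.9 after 42 °C and, below the floor, at 2.17 after 44 °C. CDKN1A, at 79.5 after 42 °C, was 15.4 after 44 °C. With 1 array per temperature the differences were not tested, and array and temperature cannot be told apart.

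Over the whole series the 4 marker genes followed different courses. HSPA6 had a signal of 138 in the control and 4751, 7245, 10652 and 4525 at 0, 1, 3 and 6 h after 42 °C, and 131, 3988, 6645 and 6587 after 44 °C. BAG3 had 176 in the control, 1591, 2999, 5118 and 3347 after 42 °C and 156, 869, 2869 and 3602 after 44 °C. For both genes the 42 °C array at 0 h lay below the next 2 arrays of that temperature, and for HSPA6 it lay above the 6 h array. INSIG1 had 3868 in the control, 895, 2476, 2348 and 1585 after 42 °C and 1228, 2940, 2836 and 1425 after 44 °C. Its lowest value of all 9 arrays was that of 42 °C at 0 h. MYC had 3123 in the control, 614, 564, 607 and 1200 after 42 °C and 2567, 1914, 787 and 859 after 44 °C. Its 42 °C values at 0, 1 and 3 h lay close together.

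**Figure D5:**
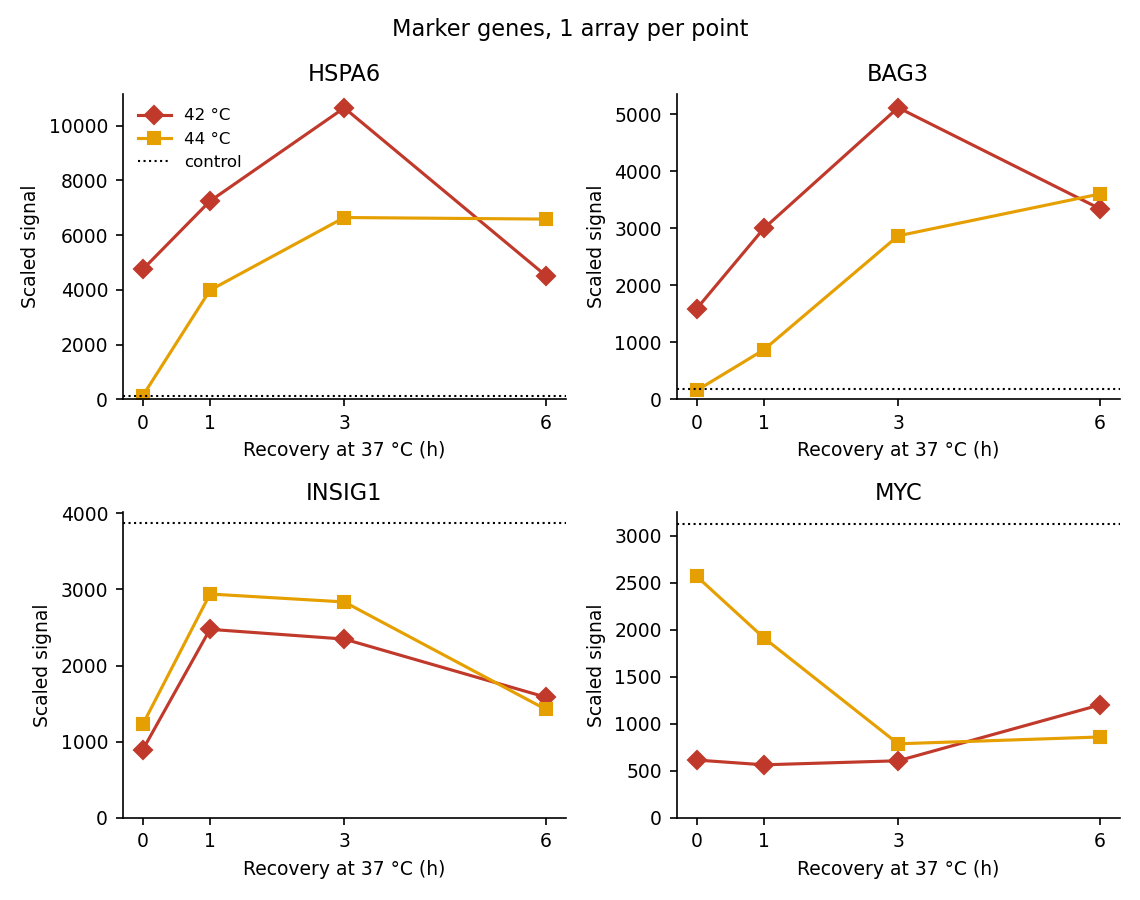
Scaled signal (y axis, linear from 0) of HSPA6, BAG3, INSIG1 and MYC against hours of recovery at 37 °C (x axis), with 1 array per point, lines joining arrays of 1 temperature and a dotted line at the single control array. At 0 h HSPA6 had 4751 after 42 °C and 131 after 44 °C, and MYC had 614 and 2567.

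The labelled cell type was checked against markers. Of 26 monocyte and myeloid markers on the array 23 were above the floor, among them the granule and monocyte genes ELANE (3366 and 4313), CTSG (4040 and 5692), LYZ (2511 and 3246) and MNDA (2248 and 2205). Summed signals are compared only between arrays. That of the myeloid list was 20388 in the control and 24330.5 at 42 °C. Of 14 T and NK cell markers 6 were above the floor, with a summed signal of 1383 and 1494, with NKG7 at 1295 and 1394, and CD3D, CD3E and CD3G were below the floor on both arrays. Of 10 B cell markers 5 were above it (summed signal 198 and 162), PAX5 at 51.9 and 57.5 and MS4A1 below it. The 14 epithelial, fibroblast and erythroid markers summed to 57.0 and 155. By the probe set used for each gene, all 14 were below the floor on the control array, so the difference of these sums was not read as a change. COL1A1 stood at 8.37 and 34.8, with log2 folds of 0.16 and 0.74 by its other probe sets above the floor. The first of these had 53.1 on the control and 59.1 at 42 °C. HBB stood at 10.4 and 27.5, with -0.067 by its other probe set above the floor (13.1 on the control). In such bulk samples fewer cells of a type and less RNA per cell cannot be told apart. Housekeeping genes stayed within 2-fold, with ACTB at 12321 and 13123 and GAPDH at 8155 and 8691, and 0 of 15 changed.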

How the data were processed

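U937 total RNA was labelled from its 3′ end and hybridised to human whole-genome Affymetrix arrays, 1 array for each of 9 conditions. The submitters' processing notes name MAS5, and the deposited values are linear probe set intensity values. The version and scaling target are not given in the sources used here. Each array was scaled to a trimmed mean of 100 (2% cut at each end), a floor of 12.5, the median over all arrays, replaced lower signals, and folds were taken as log2 differences. Probe sets with exactly 1 gene symbol in the platform annotation were used (41097, with 1801 listing several genes, 11777 unlisted and 62 controls left out), and 41037 matched RefSeq. A gene took its probe set brightest over all 9 arrays. Genes at 2-fold or more were counted, with no test, since each side had 1 array. Python 3.11.15, numpy 2.4.6 and pandas 2.3.3 were used. The scaling and fold steps were tested on simulated rises, while falls, gene lists and the motif search were not simulated.

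The members and gene lists were chosen with earlier results of these data known. Named genes were the 4 markers, a set named whatever its values, the 25 largest rises and 25 largest falls whose other probe sets did not oppose them by 0.5 or more in log2, and up to 6 changed members of each list. A few further list members were named to complete a list, chosen after their values were seen. The 7 alternatives tried were quantile normalisation, a common median, floors at the 25th and 75th percentiles, the floor as a pseudocount, the median over probe sets and the probe set brightest on the control array, beside a 4-fold size rule and a limit to genes above the floor on both arrays. Promoter windows came from RefSeq (GRCh38.p14), for 15384 of the 19775 genes.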

Additional observations from a re-analysis of the deposited data

How the results depend on the processing

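No paired analysis was possible because each condition has 1 array. The 184 rises and 476 falls became 1709 and 1588 with a floor at the lower quartile, 42 and 185 with one at the upper quartile (79.0), and 15 and 19 with a 4-fold rule. Quantile normalisation, a common median, the floor as pseudocount, the median over probe sets, the probe set brightest on the control array and a limit to genes above the floor on both arrays gave 127 to 236 rises and 322 to 530 falls, within 1.5 times the counts above. Of 114 named genes past 2-fold, 55 stayed past it in the same direction under all 7 alternatives: 106 with quantile normalisation, 112 with a common median, 114 with the lower floor, 67 with the higher, 99 with the pseudocount, 96 with the median over probe sets and 109 with the probe set brightest on the control array. HBB reversed with that last choice, to a log2 fold of -0.067. The 114 kept with the lower floor were fixed in advance, since a lower floor can only keep or enlarge a fold. Some named genes were picked for having no strongly opposing probe set. That choice favours the 96 kept with the median over probe sets. Neither count is evidence that the calls are stable. Small list shifts depend on scaling: with quantile normalisation the median of ribosome biogenesis genes went from 0.084 to -0.0098 and that of NRF2 targets from 0.047 to -0.014. The cause of these changes was not tested. Signals near the floor limit the calls, and 123 of 184 genes that rose had no second informative probe set.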

Other observations

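Of the 26 monocyte and myeloid markers on the array 3 rose (S100A8, PRTN3 and MS4A6A) and 1 fell (ITGAX), where 0.93% and 2.41% of all genes did. S100A8, a calcium-binding protein of myeloid cells, went from 92.9 to 310.5 (3.34-fold) and PRTN3, a granule protease, from 481 to 1023 (2.13-fold). MS4A6A, a membrane protein, went from 33.3 to 84.9 (2.55-fold) with all its other probe sets higher as well. ITGAX (CD11c) went from 26.5 to 2.98, at least 2.11-fold lower. On the 44 °C array at 0 h, which shares the control, the log2 fold was 1.67 for S100A8 and 0.98 for PRTN3. The granule protein AZU1 stood at 1303 and 1351, and ITGB2 and FCER1G had log2 folds of -0.25 and -0.41.

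FCER2 (CD23), of the B cell marker list, went from 73.6 to 27.8 (2.64-fold lower). HP (haptoglobin) went from 1.88 to 43.3, at least 3.45-fold, and had a log2 fold of at least 1.68 on the 44 °C array at 0 h. The glucose transporters SLC2A3 and SLC2A1 lay within 2-fold, with -0.92 and -0.71.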
